A study of Homo sapiens with 6 samples.

Results

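The genes described here are the protein-coding genes of the cytosolic ribosome, chosen by symbol: RPL or RPS followed by a number and an allowed suffix, together with RPLP0, RPLP1, RPLP2 and RPSA. The rule found 87 of the 58174 gene IDs in the deposited table. It uses names only and no measured value. Of the 87 genes, 83 passed a filter of a mean of at least 1 CPM (counts per 1000000 of the column's total, after TMM scaling sets the columns on a common scale). These 83 comprise 43 proteins of the large subunit, 31 of the small subunit, the 3 P-stalk proteins and 6 paralogs, which are second copies of a ribosomal protein gene elsewhere in the genome. The 4 genes below the filter were RPL3L, RPL10L and the Y-linked copies RPS4Y1 and RPS4Y2. RPL3L, a muscle form of RPL3, had 6 estimated counts in NC and 0 in both other columns, and 0 counts allow up to 3 counts. The count of 83 therefore does not cover all members. FAU and RACK1, which also contribute to the ribosome, fall outside the naming rule and appear only with a comparison list.

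RNA was measured in MDA-MB-231, an established human triple-negative breast cancer cell line. The 6 samples fall into 3 groups of 2: NC, with the genotype given as control, and KO1 and KO2, both given as ARID1A knockout. ARID1A belongs to BAF, a complex that moves nucleosomes along DNA. The guides, and whether KO1 and KO2 are single clones, separate guides or pools, are not given in the sources used here. The deposited table holds 1 column per group, and does not state if the 2 samples of a group were combined in it. No spread between replicates could be had, and every interval here covers counting error only.

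The columns held 26798753 (NC), 25801499 (KO1) and 26144758 (KO2) estimated counts. Of these, 12.8%, 20.5% and 16.9% came from the mitochondrial genome. ARID1A itself stood at 77.5 CPM in NC, 45.5 CPM in KO1 and 83.9 CPM in KO2. The column labelled KO2 was thus not lower than NC at the targeted gene. A knockout that leaves the RNA in place would not be seen in this value, so the label of KO2 is unchecked and "KO2" below means the column labelled KO2. Line markers VIM, CD44, KRT8, KRT18 and KRT7 were present in all 3 columns, PGR had 0 counts in all 3, and ESR1 was at or below 0.5 CPM. Of the remaining genes on that list, ERBB2 stood at 75.9 CPM in NC, 27.9 CPM in KO1 and 52.4 CPM in KO2. GATA3 stood at 8.96, 15.3 and 15.6 CPM, and CDH1 at 0.29, 0.30 and 1.07 CPM. Marker lists of fibroblasts, endothelial cells and leukocytes summed to at most 57.7 CPM in any column.

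Each ribosome carries nearly every one of these proteins once, and the P-stalk carries several copies of RPLP1 and RPLP2, so the cell has to make them in matched amounts. Their genes are scattered over the chromosomes, are transcribed at high rates in growing cells, and many hold small nucleolar RNA (snoRNA) genes in their introns. Most of their mRNAs begin with a C followed by an unbroken run of pyrimidines, the 5′ terminal oligopyrimidine (TOP) motif, through which mTORC1 and the RNA-binding protein LARP1 set their translation and stability together.

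The starts of the genes on which the later comparisons turn are printed here, because the TOP motif is the sequence feature these genes are known to share. Each line gives 10 bases before and 20 bases from a transcription start listed by RefSeq (GRCh38.p14), 5′ to 3′ on the gene's strand. Where several starts are listed, the one with the longest run is shown. Capitals mark the run of C and T that begins at the first transcribed base, where there is one.
RPL28 (chr19:55385922-55385951, plus strand): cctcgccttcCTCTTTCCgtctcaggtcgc
RPL10 (chrX:154398367-154398396, plus strand): ggaggagcgcCTCTTTCCCTTCggtgtggt
RPL36A (chrX:101391001-101391030, plus strand): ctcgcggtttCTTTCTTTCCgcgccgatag
RPL18 (chr19:48619159-48619188, minus strand): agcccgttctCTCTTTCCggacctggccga
RPS13 (chr11:17077648-17077677, minus strand): ctctcgctctCCTTTCgttgcctgatcgcc
RPL22L1 (chr3:170870176-170870205, minus strand): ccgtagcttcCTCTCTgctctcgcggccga
RPL7A (chr9:133348208-133348237, plus strand): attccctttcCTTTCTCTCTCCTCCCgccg
RPL12 (chr9:127451387-127451416, minus strand): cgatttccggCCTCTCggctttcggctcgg
RPLP0 (chr12:120201092-120201121, minus strand): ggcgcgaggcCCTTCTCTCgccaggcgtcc
RPL9 (chr4:39458903-39458932, minus strand): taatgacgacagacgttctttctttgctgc

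A TOP start was counted where the first transcribed base was C and at least 4 further bases were C or T, read on the transcribed strand only. RefSeq starts were listed for 70 of the 87 genes, and 48 of these 70 (68.6%) had a TOP start. Among 15216 other protein-coding genes with listed starts, 921 (6.05%) had one. The longest run in a member was 19 bases, in RPL39. Of the 8 paralogs with a listed start only 2 had a TOP start, against 46 of 62 (74.2%) of the other members. RPL9, shown above, starts on an A at its listed start and so has none there. A match is a description of the letters in this window, and a start that RefSeq lists may not be the one these cells use.

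Level per transcript length was compared with TPM (the deposited value per transcript length, which sums to the same total in each column, here summed per gene). Without the paralogs the members had a median of 1226 TPM in NC, 1211 TPM in KO1 and 971 TPM in KO2. The lowest member stood at 290 TPM in NC, 267 TPM in KO1 and 270 TPM in KO2, and the highest at 6850, 4827 and 3440 TPM. The most abundant member in NC was RPL12, a protein at the base of the P-stalk, at 6850 TPM, with 4827 TPM in KO1 and 2902 TPM in KO2. RPL35, a protein near the exit of the peptide tunnel, followed in NC at 5156 TPM, with 3619 TPM in KO1 and 2749 TPM in KO2. Although nearly all of the proteins are needed in equal numbers, their TPM values spanned over an order of magnitude in every column. At the low end among the core genes, RPS23, a protein of the decoding centre, stood at 290 TPM in NC, 492 TPM in KO1 and 325 TPM in KO2. The paralogs lay lower, from 26.9 to 405 TPM in NC. TPM also depends on how counts were split over transcripts of different length. In NC 85.85% of RPS23 counts were assigned to a transcript of 3437 nt. In CPM RPS23 stood at 410 in NC, beside a median of 654 over the members past the filter. RPS19 stood at 581 TPM in NC, 2220 TPM in KO1 and 1058 TPM in KO2, beside 766, 1224 and 570 CPM.

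Summed over all members, the CPM was 61420 in NC, 73140 in KO1 and 44010 in KO2. As a share of all counts the members took 6.40%, 6.55% and 4.72%. With the mitochondrial genome left out the shares were 7.34%, 8.24% and 5.67%. In TPM the shares were 11.7%, 10.8% and 8.66%. These are shares of the RNA sampled: fewer cells making a transcript and less of it per cell cannot be told apart. KO2 was lowest on all 4 scales, while KO1 stood above NC in CPM and in both count shares and below NC in TPM. The summed CPM of the large subunit and the P-stalk together was 1.74 times the summed small subunit CPM in NC, 1.55 times in KO1 and 1.52 times in KO2.

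In the KO1 column the ribosomal protein genes lay on both sides of NC. The SD of their log2 folds was 0.56, against 1.37 over all genes and 0.99 over the genes at 100 CPM or more. Of 83 members, 54 were above NC and 29 below, where 49% of all 14522 genes past the filter were above and 51% below. The members' median log2 fold was 0.26 beside -0.03 for all genes, and this direction depends on the scaling: it was 0.04 with total counts and -0.02 with summed TPM. Those scalings also moved the median of all genes, to -0.24 and -0.33. KO1 also had the largest share of mitochondrial reads, and scaling on nuclear protein-coding genes alone gave a members' median of 0.33 with those reads left out. Relative to all genes the members' median lay 0.29 higher in the scaling used here, 0.29 higher with total counts and 0.31 higher with TPM. It lay 0.0077 higher with the most abundant transcript alone and 0.20 higher with length class medians subtracted, so the offset depends on how transcripts are counted. The small subunit had a median of 0.41, with 24 of 31 members above NC, and the large subunit a median of 0.10, with 24 of 43 above NC. The gap between subunits kept its sign in every alternative run, but no test of it is possible with 1 column per group.

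A gene was called different by size where its log2 fold was at least 1 in either direction and the exact 95% interval of the fold excluded equality. By this rule 6 members were higher in KO1 than in NC, beside 15.2% of all genes, and 2 were lower, beside 17.7% of all genes. Both shares, 7.23% and 2.41% of the members, lie under the background. Since the members are abundant, the 1834 genes at a mean of at least 100 CPM are a second background, and there 12.8% were higher and 10.7% lower. At 1.5-fold, 21 members were higher (26% of all genes) and 7 lower (28.4% of all genes).

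**Figure D1:**
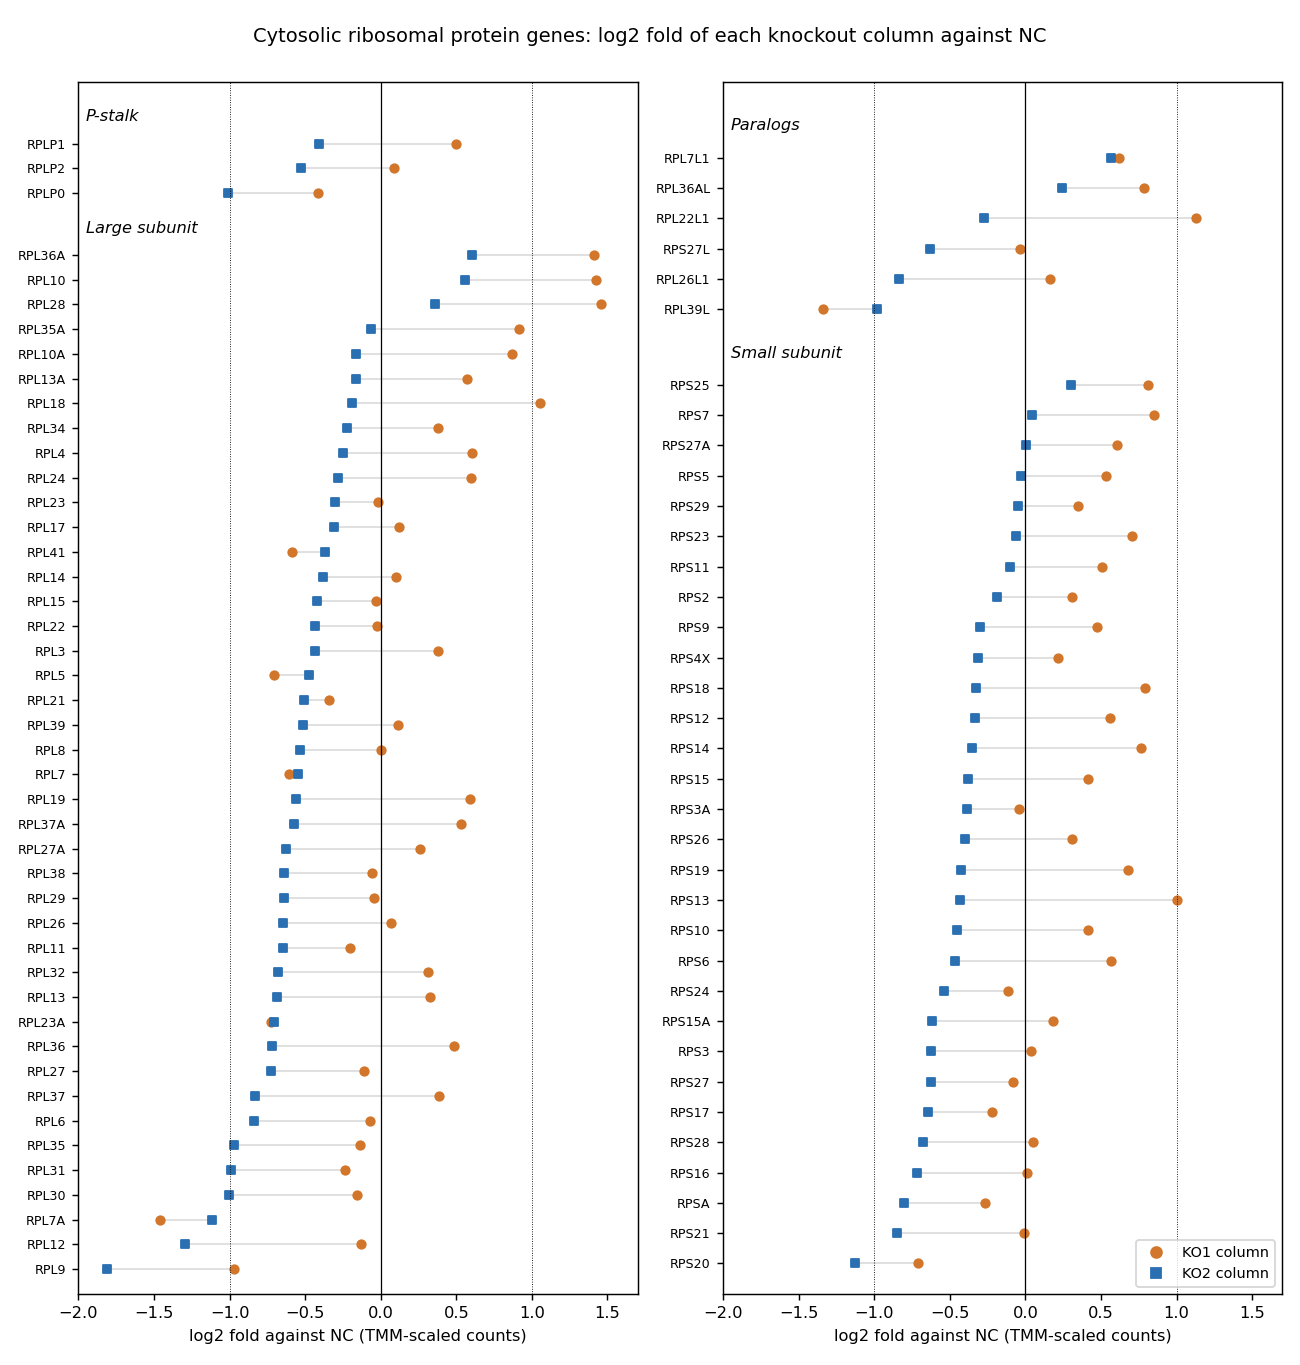
Each row is a ribosomal protein gene past the filter, with its log2 fold against NC (horizontal axis, TMM-scaled counts) in the KO1 column (circles) and the KO2 column (squares); dotted lines mark 2-fold, and 2 of the 83 genes are not drawn. Over all 83 genes KO2 lies left of 0 for 74 and left of KO1 for 77, and the KO1 median of 0.26 changes sign to -0.02 with summed TPM.

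RPL28, a large subunit protein (hg38 chr19:55385345-55403250), stood at 811 CPM in NC, 2225 CPM in KO1 and 1041 CPM in KO2. KO1 was the high column and the other two lay close. Its fold in KO1 was 2.74 (95% interval 2.70 to 2.79), and with summed TPM its log2 fold was 0.85, under the threshold. RPL10 joins the large subunit late in its maturation, at the step where NMD3 is released (hg38 chrX:154389955-154409168). It stood at 651 CPM in NC, 1749 CPM in KO1 and 960 CPM in KO2, a fold of 2.69 in KO1 (2.64 to 2.73). Both knockout columns were above NC, with KO2 under the threshold. RPL36A lies at the exit site for transfer RNA (hg38 chrX:101390824-101396154). It stood at 247 CPM in NC, 656 CPM in KO1 and 376 CPM in KO2, a fold of 2.66 in KO1 (2.58 to 2.73).

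RPL10 and RPL36A are 2 of the 4 members on the X chromosome. The median of all genes there was 0.41 in KO1 and 0.49 in KO2, well above the genome's, so the chromosome moved with both genes, and its part in the result was not tested. With the chromosome's median subtracted, the log2 fold of RPL10 in KO1 was 1.01 and that of RPL36A was 0.99. The other 2 members on X lay lower. Before that subtraction the log2 fold of RPL39 was 0.11 for KO1 and -0.51 for KO2, and after it -0.30 and -1.005. For RPS4X it was 0.21 and -0.31 before, and -0.20 and -0.81 after. RPL36A also shares its exons with a read-through gene, RPL36A-HNRNPH2, which stood at 48.2 CPM in NC, 31.6 CPM in KO1 and 15.2 CPM in KO2. How the authors' counting divided reads between the 2 genes is not known, so the value of RPL36A alone is uncertain.

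The other 3 higher members lay nearer the threshold. RPL18, a large subunit protein (hg38 chr19:48615328-48619536), stood at 633 CPM in NC, 1314 CPM in KO1 and 555 CPM in KO2, a fold of 2.08 (2.04 to 2.12). RPS13, a small subunit protein at the interface between the subunits (hg38 chr11:17074389-17077787), stood at 367, 734 and 272 CPM, a fold of 2.0 (1.95 to 2.05). RPL22L1, the paralog of RPL22 (hg38 chr3:170864875-170870483), stood at 26.3, 57.6 and 21.7 CPM, a fold of 2.19 (2.0 to 2.40). In all 3 genes KO1 was high and KO2 lay below NC. These calls are the least firm: RPL18 and RPL22L1 passed in 10 of 14 alternatives and RPS13 in 8 of 14, while RPL10 passed in all 14.

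RPL7A was the member farthest below NC in KO1. It is a large subunit protein whose introns hold 4 snoRNA genes (hg38 chr9:133348214-133351426). It stood at 1885 CPM in NC, 684 CPM in KO1 and 869 CPM in KO2, with both knockout columns far under NC. KO1 was 2.75-fold lower than NC (2.71 to 2.80) and KO2 2.17-fold lower (2.14 to 2.20). RPL7A was the only member past the 2-fold threshold on the same side of NC in KO1 and KO2, beside 5.78% of all genes on the lower side. No member was higher in both, beside 6.18% of all genes. The call in KO1 stood in all 14 alternatives. In KO2 it was lost in 3. The log2 fold there was -0.88 with the median of chromosome 9 subtracted and -0.79 with the median of its length class subtracted. With protein-coding transcripts alone it was -0.98. In NC 82.9% of RPL7A counts were assigned to RPL7A-205 and 14.5% to RPL7A-204, both annotated as processed transcripts. The protein-coding RPL7A-202 and RPL7A-201 held 0.71% and 0.57%, so the gene's value mostly counts transcripts not annotated as protein-coding. The processed pseudogenes RPL7AP6 and RPL7AP66 lay lower in the knockout columns as well, at 60.5 CPM in NC, 15.6 CPM in KO1 and 23.6 CPM in KO2 for RPL7AP6. Reads of a gene and its near-identical copies can be divided wrongly between them, and here the copies were a small part of the sum.

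RPL39L, the paralog of RPL39 that is best known from male germ cells and tumours, was the other lower member in KO1 (hg38 chr3:187120948-187180908). It stood at 37.5 CPM in NC, 14.8 CPM in KO1 and 18.96 CPM in KO2. KO1 was 2.54-fold lower than NC (2.25 to 2.88), and KO2 just missed the threshold with a log2 fold of -0.98. Just inside the threshold in KO1 lay RPS13 with a log2 fold of 1.0, and just outside it RPL35A, at 0.92, and RPL9, at -0.97.

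**Figure D2:**
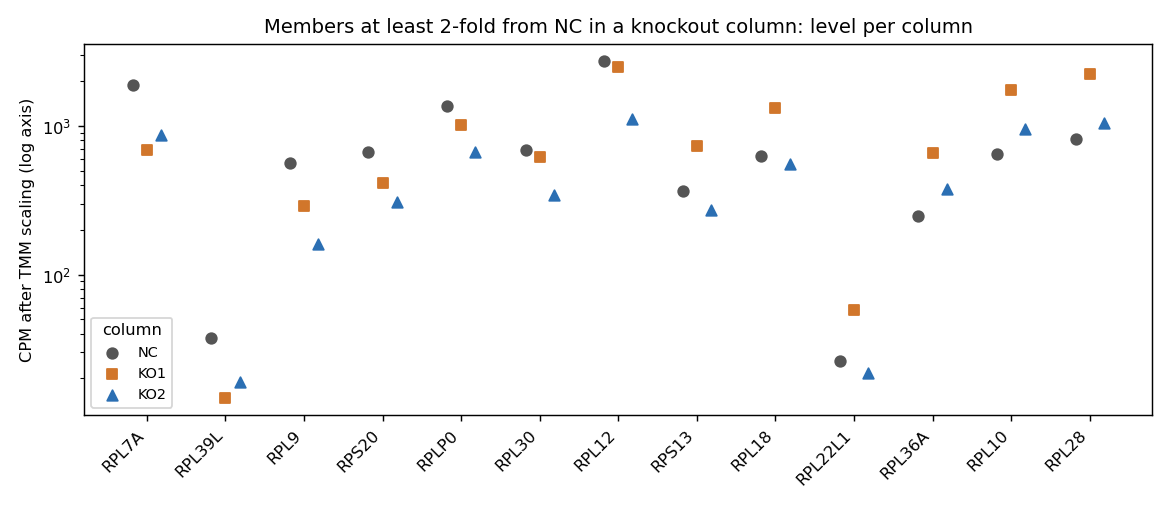
Level in CPM (log axis) of the 13 ribosomal protein genes at least 2-fold from NC in either knockout column, in NC (circles), KO1 (squares) and KO2 (triangles), ordered by the KO1 fold. RPL7A, RPL39L, RPL9, RPL12, RPLP0, RPS20 and RPL30 have both knockout columns below NC. RPL28, RPL10 and RPL36A have KO1 on top with KO2 between KO1 and NC, and RPL18, RPS13 and RPL22L1 have KO1 above NC and KO2 below it.

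In the KO2 column the ribosomal protein genes lay below NC almost throughout. Of 83 members 74 were below NC (89.2%), where 50.5% of all genes were. The median log2 fold was -0.47 beside -0.01 for all genes, with quartiles of -0.66 and -0.28. The median was -0.55 in the large subunit, with 40 of 43 members below NC, and -0.39 in the small subunit, with 27 of 31 below NC. All 3 P-stalk proteins and 4 of 6 paralogs were below NC. This direction held in all 15 alternatives, in which the members' median minus that of all genes was between -0.59 and -0.24. The 1.5-fold threshold, 1 of the 15, cannot move a median. TMM without the ribosomal protein genes, a prior count of 0.5 and added read-through counts left the difference at -0.46, as in the scaling used here. The SD over the members was 0.41, against 1.11 over all genes and 0.69 over the genes at 100 CPM or more. Those abundant genes had a median of -0.13, with 58.1% below NC.

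The offset was broad rather than deep. By the size rule 6 members were lower in KO2 (10.1% of all genes) and 0 were higher (11% of all genes). At 1.5-fold, 32 members were lower (21.2% of all genes) and 1 was higher (22% of all genes). Among the genes at 100 CPM or more, 6.71% were lower by 2-fold and 21% by 1.5-fold. The share of members lower by 2-fold, 7.23%, was thus near that of abundant genes, and the share lower by 1.5-fold, 38.6%, lay above both backgrounds.

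RPL9 was the lowest member in KO2. It is a large subunit protein near the sarcin-ricin loop, the RNA hairpin on which elongation factors act (hg38 chr4:39454124-39458948). It stood at 565 CPM in NC, 289 CPM in KO1 and 161 CPM in KO2. KO2 was 3.51-fold lower than NC (3.39 to 3.63), and KO1 lay between. The call stood in all 14 alternatives. RPL12 and RPLP0, which hold the P-stalk to the large subunit, were also called. RPL12 (hg38 chr9:127447674-127451405) stood at 2743 CPM in NC, 2505 CPM in KO1 and 1115 CPM in KO2, with NC and KO1 close and KO2 2.46-fold lower than NC (2.43 to 2.49). RPLP0 (hg38 chr12:120196686-120201235) stood at 1358, 1018 and 673 CPM, with KO2 2.02-fold lower (1.98 to 2.05), and it passed in 9 of 14 alternatives.

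The stalk proteins carried by RPLP0 differed less from NC. RPLP1 stood at 831 CPM in NC, 1171 CPM in KO1 and 625 CPM in KO2, and RPLP2 at 748, 794 and 518 CPM. KO2 was the lowest column for both. Of the remaining calls, RPS20, a protein of the small subunit's head, stood at 672 CPM in NC, 411 CPM in KO1 and 307 CPM in KO2, a 2.19-fold lower level in KO2 (2.13 to 2.25). RPL30, a large subunit protein that contacts the small subunit, stood at 691, 620 and 345 CPM, a 2.01-fold lower level in KO2 (1.96 to 2.06). Both lie on chromosome 8, where all genes had a median of -0.21 in KO2. With that median subtracted RPS20 was at -0.91 and RPL30 at -0.79, under the threshold. Just outside the threshold lay RPL31, at -0.99.

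The 9 members above NC in KO2 included RPL36A (log2 fold 0.60), RPL7L1 (0.57), RPL10 (0.56), RPL28 (0.36), RPS25 (0.30), RPL36AL (0.24), RPS7 (0.04) and RPS27A (0.00). All 9 were above NC in KO1 as well. RPS25, a small subunit protein that viral internal ribosome entry sites require, stood at 370 CPM in NC, 649 CPM in KO1 and 455 CPM in KO2. RPS7 was close to NC in KO2 and higher in KO1, at 632 CPM in NC, 1142 CPM in KO1 and 652 CPM in KO2.

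KO1 and KO2 carry the same genotype label, and the members separated these columns more than either from NC. Of 83 members 77 were lower in KO2 than in KO1 (92.8%), where 47.8% of all genes were, and all 31 small subunit members were among them. The median log2 fold of KO2 over KO1 was -0.73 beside 0.04 for all genes, with an SD of 0.37 over the members. By the size rule 17 members were lower in KO2 (11.1% of all genes) and 0 higher (15.1% of all genes). At 1.5-fold, 56 were lower (21.7% of all genes) and 0 higher (26.2% of all genes). KO2 was the lowest of the 3 columns for 68 of 83 members (28.1% of all genes), KO1 was the highest for 54 (34.9% of all genes), and 45 members had the order KO2, then NC, then KO1 (15.2% of all genes). The count at 2-fold depends on the scaling, with 2 members lower with total counts and 3 with summed TPM. Those scalings moved the median of all genes to 0.30 and 0.39, and relative to it the members' median was -0.77 in both the scaling used here and total counts, and -0.71 with TPM. With length class medians subtracted it was -0.44, with 7 members lower, and among genes under 600 nt the members, at -0.62, did not stand below the other genes, at -0.63.

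RPS13 was farthest apart between the knockout columns, 2.70-fold lower in KO2 than in KO1 (2.62 to 2.77), followed by RPL22L1 at 2.65-fold (2.41 to 2.93) and RPL18 at 2.37-fold (2.32 to 2.41). The further calls included RPL37, RPL36, RPL12, RPL19, RPS18, RPS14, RPL37A, RPS19, RPL28, RPS6, RPL10A, RPL13 and RPL26L1, between 2.0 and 2.33-fold lower. None of these calls stood in all 14 alternatives: they passed in between 8 (RPL13) and 12 (RPL37, RPL37A and RPL28). With protein-coding transcripts alone the log2 fold of RPL10A was -0.06, and with the most abundant transcript alone that of RPS19 was -0.24. RPS6, the substrate of the S6 kinases that act under mTORC1, stood at 1158 CPM in NC, 1715 CPM in KO1 and 838 CPM in KO2. RPS19 and RPS14, whose loss of 1 gene copy is known to impair red cell formation, stood at 766, 1224 and 570 CPM and at 752, 1278 and 588 CPM. In all 3 genes KO1 was above NC and KO2 below it. RPL26L1 is the least precise of these, at 2.0-fold (1.83 to 2.19), because it stood at only 57.1 CPM in KO1 and 28.5 CPM in KO2.

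The 6 members that were not lower in KO2 than in KO1 were RPL39L, RPL7A, RPL5, RPL41, RPL7 and RPL23A. Each lay below NC in both knockout columns. RPL5, which with RPL11 and the 5S ribosomal RNA forms the particle that binds MDM2 when ribosome assembly stalls, stood at 900 CPM in NC, 551 CPM in KO1 and 647 CPM in KO2. RPL11, its partner in that particle, stood at 691 CPM in NC, 600 CPM in KO1 and 441 CPM in KO2, with KO2 lowest. RPL23A, at the tunnel exit, stood at 1505 CPM in NC and at 911 and 923 CPM in the knockout columns. RPL41 stood at 880, 587 and 683 CPM, and RPL7 at 586, 385 and 400 CPM. NC was the highest column in 29 members, these 6 among them, and KO1 in the other 54.

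**Figure D3:**
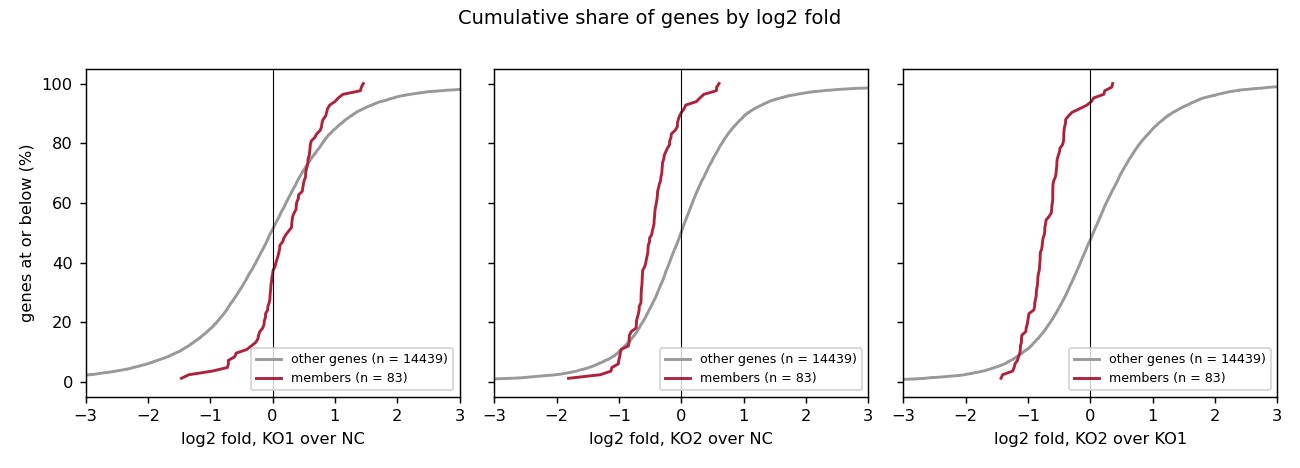
Cumulative percentage of genes (vertical axis) at or below a given log2 fold (horizontal axis) for the 83 ribosomal protein genes and all other genes past the filter, in KO1 over NC, KO2 over NC and KO2 over KO1. The members' curve is steeper than that of other genes in all 3 panels and crosses 50% at -0.47 in KO2 over NC and at -0.73 in KO2 over KO1; in KO1 over NC it crosses at 0.26, a direction that turns to -0.02 with summed TPM.

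The only fit with a residual degree of freedom took both knockout columns as 1 group of 2 against the single NC column. In this edgeR quasi-likelihood test with Benjamini-Hochberg adjustment over all genes, 0 of 83 members passed an adjusted p of 0.05, where 48 of 18289 genes did (0.262%). At an unadjusted p under 0.05, edgeR had 0 members, where 8.13% of all genes passed. DESeq2 also called 0 members (1.79% of all genes), with 1, RPL7A, at an unadjusted p under 0.05 (7.97% of all genes). The lowest adjusted p of a member in the edgeR test was 0.63, for RPL9. With 1 residual degree of freedom and knockout columns that lie this far apart, a miss does not show that the members were equal.

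Paralog pairs encode related proteins, some nearly identical and others more distant, and the share of each pair's TPM held by the paralog shifted unevenly. RPL22L1 made up 10.4% of the RPL22 pair in NC, 20.04% in KO1 and 12.5% in KO2. RPL22 itself stood at 304 TPM in NC, 267 TPM in KO1 and 270 TPM in KO2, so the shift lay in RPL22L1. RPL7L1, a nucleolar protein related to RPL7, made up 8.70% of its pair in NC, 17.8% in KO1 and 17.6% in KO2. RPL7 itself stood at 853 TPM in NC, 439 TPM in KO1 and 607 TPM in KO2, so both genes contributed. RPL39L made up 4.76% of the RPL39 pair in NC, 1.97% in KO1 and 3.87% in KO2. RPL36AL made up 41.5% of the RPL36A pair in NC, 31.0% in KO1 and 35.8% in KO2, with both genes at a higher TPM in KO1 than in NC and RPL36A the more so. RPS27L, a target of p53, made up under 1.2% of the RPS27 pair in every column, and RPL26L1 between 6.36% and 7.76% of the RPL26 pair. These TPM shares depend on the transcript length assigned. In NC 92.05% of RPS27L counts were assigned to a transcript of 6434 nt, and 96.4% of RPS27 counts to 1 of 359 nt. In CPM RPS27L stood at 70.8 beside 886 for RPS27 in NC. RPL7L1 stood at 212.5 CPM in NC, 327 CPM in KO1 and 315 CPM in KO2, beside 586, 385 and 400 CPM for RPL7. The TPM of RPL7L1 was highest in KO2, and its CPM in KO1.

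Ribosomal protein mRNAs are short, and gene length moved with the columns. The members' median transcript length was 933 nt, against 2996 nt in other nuclear protein-coding genes. Among those other genes the median log2 fold of KO2 over NC was -0.09 below 600 nt, -0.32 from 600 to 1000 nt, -0.21 from 1000 to 2000 nt, -0.02 from 2000 to 4000 nt and 0.18 above that. The members lay lower in every class, between -0.68 and -0.43, the 6 members longer than 4000 nt at -0.51. These lengths rest on the estimated split of counts over annotated transcripts. In NC, 70.9% of RPL37 counts were assigned to a transcript of 7686 nt, and 73.4% of RPL14 counts to a transcript of 7072 nt. Whether the RNA molecules were that long was not tested. With the median of each gene's length class subtracted the members' median was -0.23 in KO2 over NC and -0.46 in KO2 over KO1, and the calls were 2 and 7 lower members. The offset against NC was thus smaller within length classes, and what part length plays in it was not tested.

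**Figure D4:**
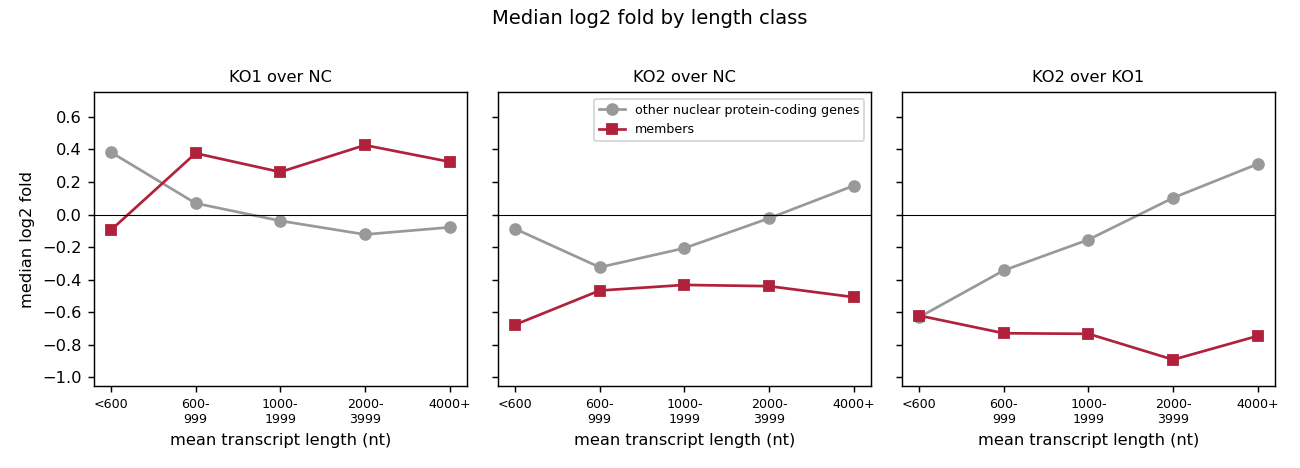
Median log2 fold (vertical axis) by class of mean transcript length in nucleotides (horizontal axis) for the ribosomal protein genes (squares) and other nuclear protein-coding genes (circles). Other genes climb with length in KO2 over KO1, from -0.63 to 0.31, while the members stay between -0.89 and -0.62; in KO1 over NC the members lie at -0.10 in the shortest class and above 0 in the other 4, and their overall median turns to -0.02 with summed TPM.

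The split of counts over a gene's transcripts is an estimate, and it changed between columns for several members. Of the 82 members with at least 500 counts in each column, the share of the main transcript moved by a median of 10.6 percentage points. RPS19 had most of its counts in transcript RPS19-206 in the control column (96.7%), with 30.6% for KO1 and 55.6% for KO2. The shorter RPS19-202 held 0.51%, 62.6% and 13.7%. Transcript RPS20-205 held 78.5% of RPS20 in NC, 18.6% in KO1 and 53.2% in KO2, and RPL31-205 held 76.5%, 16.8% and 69.1% of RPL31. Transcript RPS27A-202 held 40.8% in NC and 59.0% in KO1 and had 0 counts in KO2, and RPS3A-201 held 42.8%, 21.4% and 76.9%. KO1 had the lowest share of the transcript named in 4 of these 5 genes, RPS27A being the exception. Taking the most abundant transcript alone turned RPS18 from lower to higher in KO2 against KO1, with a log2 fold of 0.23.

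Transcripts annotated as retaining an intron took up 6.62% (NC), 8.42% (KO1) and 8.10% (KO2) of what the members' reads were assigned to. In other nuclear protein-coding genes they took up 7.96%, 8.64% and 8.59%. Their share was higher than NC in KO1 for 47 of 68 members (69.1%, against 52.1% of other genes). In KO2 it was higher for 50 of 68 members (73.5%, against 56.8% of other genes). With only the protein-coding transcripts counted the median log2 fold was 0.16 in KO1 and -0.52 in KO2.

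Members with a TOP start and members without one had similar medians. The 47 members past the filter with a TOP start had a median log2 fold of -0.45 in KO2 over NC, and the 20 with listed starts and none had -0.41. In KO2 over KO1 the medians were -0.77 and -0.75. This split rests on RefSeq's listed starts, which may not be the starts these cells use, so it may not separate TOP from other mRNAs. The 28 members that hold a snoRNA gene had a median of -0.51 in KO2 over NC, against -0.44 for the 55 that hold none. No test of these differences is possible with 1 column per group.

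Other genes of the ribosome and its assembly showed the separation of KO1 and KO2 to different extents. In 24 other TOP mRNAs, mostly of translation factors, the median log2 fold was 0.08 in KO1, -0.22 in KO2 and -0.37 in KO2 over KO1. Among them EEF1G, a subunit of the elongation factor that reloads EEF1A, was lower in both knockout columns, at 1608 CPM in NC, 627 CPM in KO1 and 685 CPM in KO2. Of 44 ribosome assembly factors, 11 were higher (15.2% of all genes) and 2 lower (17.7%) in KO1 by the size rule. In KO2 0 were higher (11%) and 3 lower (10.1%), and 11 were lower in KO2 than in KO1 (11.1%). Their medians were 0.44 in KO1, -0.25 in KO2 and -0.72 in KO2 over KO1, the last close to the members' -0.73. SBDS, which releases EIF6 from the new large subunit, stood at 86.8 CPM in NC, 247 CPM in KO1 and 159 CPM in KO2. The 78 mitochondrial ribosomal proteins, the organelle's separate set, had medians of -0.02, -0.43 and -0.42. Of these 78 genes, 62 were below NC in KO2 (50.5% of all genes) and 64 below KO1 (47.8%).

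The 13 noncoding host genes of snoRNAs, whose spliced RNAs are short-lived, lay farthest apart among the lists of ribosome and translation genes. Of the 11 with a listed start, 4 had a TOP start. By the size rule 9 of 13 were higher in KO1 than in NC (15.2% of all genes) and 10 of 13 lower in KO2 than in KO1 (11.1%), with medians of 1.88, -0.32 and -1.56 in KO1, KO2 and KO2 over KO1. GAS5 stood at 92.3 CPM in NC, 396 CPM in KO1 and 64.5 CPM in KO2, and SNHG1 at 81.4, 308 and 52.5 CPM (both named after their values were seen). SNHG32 stood at 85.8, 373 and 116 CPM. The 3 exceptions to KO1 on top were SNHG16, SNHG7 and SNHG6. SNHG16 had 26.3 CPM in NC, 37.3 CPM in KO1 and its highest level, 65.0 CPM, in KO2. In SNHG7 (89.0, 59.5 and 45.4 CPM) and SNHG6 (81.3, 75.4 and 56.4 CPM) NC was the highest column. MYC, a transcription factor that drives ribosome synthesis, stood at 4.94 CPM in NC, 11.3 CPM in KO1 and 4.71 CPM in KO2.

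**Figure D5:**
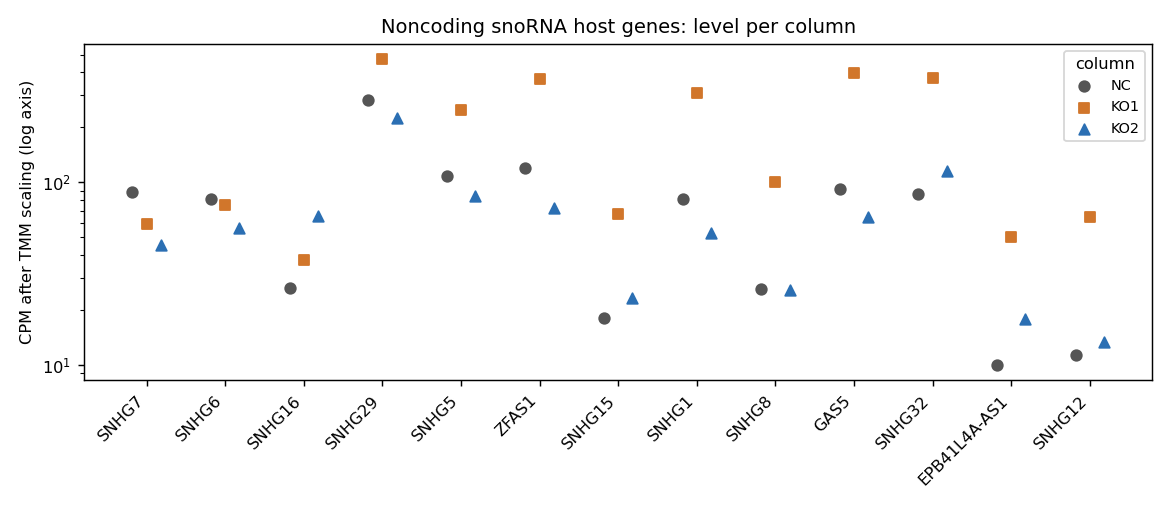
Level in CPM (log axis) of 13 noncoding snoRNA host genes in NC (circles), KO1 (squares) and KO2 (triangles), ordered by the KO1 fold. KO1 is on top for 10 of the 13 genes shown, and the KO1 point of GAS5 lies at 396 CPM, above its NC point at 92.3 and its KO2 point at 64.5.

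Of 1598 listed ribosomal protein pseudogenes, which are mostly reverse-transcribed copies of the members' mRNAs, 106 passed the filter. Their medians were 0.27 in KO1, -0.61 in KO2 and -0.83 in KO2 over KO1, near the members' own. Together all 1598 listed pseudogenes amounted to 2.24% of the members' summed CPM in NC, 2.05% in KO1 and 2.001% in KO2. Adding each pseudogene's counts to its parent left the members' median at 0.31 in KO1 and -0.47 in KO2. Reads that fit a member and its copy equally could not be told apart from the table.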

How the data were processed

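RNA was extracted with Trizol and libraries were made with a stranded total RNA kit, per the labels' protocols. Tools in the submitters' processing notes are CASAVA, Bowtie2 and featureCounts, and the build is hg38, with no version or role stated; the tool that estimated transcript values is not given in the sources used here. The deposited table holds, per transcript, an estimated count (expected count, rounded up to a whole number by the authors, as judged from the values), and a TPM, with 1 column per group. The 3 further columns, FPKM values of the same groups, were not used here.

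Counts were summed per gene ID over 199167 transcripts. Gene positions are the deposited hg38 spans, and symbols are current ones, found for 57392 IDs. Columns were scaled by TMM (edgeR 4.0.16), genes needed a mean of 1 CPM, and log2 folds used a prior count of 2. Exact 95% Clopper-Pearson intervals cover counting error only. The size rule (at least 2-fold, interval excluding equality) gives no p-value. The edgeR quasi-likelihood test took both knockout columns against NC over 18289 genes, with robust off, and DESeq2 1.42.0 was an alternative. With 1 column per group, the p-values of both fits rest on the spread between the 2 knockout columns. Each gene's spread was drawn towards a trend fitted over all genes. The size rule and the edgeR test were tested on simulated data with counting error or a small added spread. The deposited knockout columns lay farther apart, so this does not show how either behaves here. Further alternatives were other scalings, filters, prior counts, thresholds, the main transcript alone, added pseudogene counts and subtracted chromosome medians. The protein-coding transcripts alone, added read-through counts, subtracted length class medians and the robust fit were chosen after seeing the data.

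Members and gene lists were chosen with earlier results of these data known. Named members were the 6 highest and 6 lowest in each comparison at a mean of at least 5 CPM, the 5 highest and 5 lowest by TPM, paralog pairs, RPLP0, RPLP1, RPLP2, RPSA, RPS6, RPL5, RPL11, any called member, and the 5 with the largest shift of the main transcript's share. Of each list up to 3 genes per direction could be named, by the smaller log2 fold against NC of both knockout columns. Sequences are RefSeq's (GRCh38.p14), and transcript types and lengths follow GENCODE 29, with a gene's length averaged over its transcripts by their counts. Further genes in the text were named after their values were seen. Results of a few genes are not reported here. The shares over genes at 100 CPM or more were added after seeing the data.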

Additional observations from a re-analysis of the deposited data

Results flagged for a closer look

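Several lists had medians of opposite sign in the 2 columns that carry the same knockout label, and none of these differences was tested, since each column stands alone. The cytosolic ribosomal protein genes had a median log2 fold against NC of 0.26 in KO1 and -0.47 in KO2. Their pseudogenes had 0.27 and -0.61. The noncoding snoRNA host genes had 1.88 and -0.32, and the ribosome assembly factors 0.44 and -0.25.

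Smaller gaps of the same kind were found in other TOP mRNAs (0.084 and -0.22), RNA polymerase I genes (0.047 and -0.24) and translation initiation factors (0.16 and -0.17). The chaperones and importins of ribosomal proteins went the other way, at -0.20 in KO1 and 0.01 in KO2. Both columns are set against the same NC column.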

How the results depend on the processing

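Each median and count was recomputed under 15 alternatives. The members' median in KO1 against NC (0.26) was 0.22 with DESeq2 size factors, 0.044 with total counts (3 higher), 0.33 with TMM over nuclear protein-coding genes, -0.0168 with summed TPM (3 higher, 5 lower), 0.0077 with the most abundant transcript alone (7 lower), 0.31 with pseudogene counts added and 0.16 with protein-coding transcripts alone (4 lower). The threshold of 1.5-fold gave 21 higher and 7 lower.

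In KO2 against NC (-0.47) it was -0.43 with total counts, -0.41 with summed TPM (3 lower), -0.60 with the most abundant transcript (2 higher, 13 lower), -0.43 with chromosome medians subtracted, -0.52 with protein-coding transcripts and -0.23 with length class medians subtracted (2 lower). The 1.5-fold threshold gave 1 higher and 32 lower.

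In KO2 against KO1 (-0.73) it was -0.47 with total counts (2 lower), -0.77 with nuclear TMM, -0.33 with summed TPM (3 lower), -0.61 with the most abundant transcript (4 higher), -0.68 with protein-coding transcripts (1 higher) and -0.46 with length class medians subtracted (7 lower), with 56 lower at 1.5-fold. RPS18 there turned to 0.23 with the most abundant transcript alone. The cause was not tested.

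edgeR called 0 members under every setting, with 48 genes called in all, 27 with the robust fit, 38 with DESeq2 size factors, 9 with nuclear protein-coding genes alone and 493 without the low filter; DESeq2 called 306. Unadjusted p under 0.05 was reached by RPL9 with DESeq2 size factors and by RPL7A and RPL9 without the filter. For single named members 1398 values kept their side of the threshold and size, 638 moved, 82 passed only under the alternative, 86 no longer passed, and 1 that had passed changed sign. Members near 0 changed sign more often: 54 lay above NC in KO1, 42 with total counts and 39 with summed TPM. No paired analysis was possible because the columns carry no replicate number. Leaving out a replicate was not possible, as each group has 1 column. Depth limits few members: the lowest past the filter stood at 14.8 CPM.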
